A study of Mus musculus with 4 samples.

Results

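The late cornified envelope (Lce) and small proline-rich (Sprr) genes of the mouse encode small structural proteins of the dead outer layer of the epidermis. A gene was included when its single platform symbol began with Lce or Sprr followed by a digit, and each was read through the probe set (the group of array probes that measures a transcript) with the highest mean over the 4 arrays. The rule found 32 genes among the 19938 genes with a single symbol. They comprise 13 Lce1 genes, 5 Lce3 genes, 2 Sprr1 genes, 9 Sprr2 genes and 3 others (Sprr3, Sprr4 and Lce6a), each with 1 probe set. Of the 9 Sprr2 entries, Sprr2g and Sprr2j-ps are annotated as transcribed pseudogenes. All 32 lie on chromosome 3, in the order Sprr2, Sprr1b, Sprr3, Sprr1a, Sprr4, Lce6a, Lce1 and Lce3.

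The arrays measured RNA from laser-captured epidermis of hairless hindpaw skin of mice that overexpress noggin, a secreted antagonist of bone morphogenetic proteins (BMPs), or BMP4, a BMP ligand. Both transgenes are driven by the K14 promoter, which is active in basal keratinocytes, whereas most Lce and Sprr genes are expressed in the layers above them. Each array holds RNA pooled from 3 animals, with 8 to 10 epidermal strips per animal, so there were 2 noggin arrays and 2 BMP4 arrays from 6 animals of each kind. The sources used here state no strain, age, sex or number of founder lines. Skin without a transgene was not analysed here, so every difference below is noggin minus BMP4 between the 2 kinds of transgenic skin. In RNA from bulk tissue, fewer cells of a type and less RNA per cell cannot be told apart.

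When a keratinocyte reaches the granular layer, its plasma membrane is replaced from within by the cornified envelope, a shell of proteins joined by transglutaminases. Loricrin and involucrin make up much of its scaffold, SPRR proteins act as cross-bridges through their glutamine- and lysine-rich ends, and LCE proteins are added late. Sprr1 and Sprr2 genes are known for induction in injured or inflamed skin, and in humans LCE3 genes are known for induction after barrier injury and LCE1 genes for expression in normal skin.

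The captured tissue carried the markers of stratified epidermis. The suprabasal keratins and junction genes, 7 of 9 listed genes measured, had a summed linear intensity of 51246 and 50007 in noggin arrays and of 50252 and 50280 in BMP4 arrays. Log2 values of Krt10, the main suprabasal type I keratin, were 13.33 and 13.36 in noggin arrays and 13.27 and 13.32 in BMP4 arrays. The brightest genes dominate such a sum. Krt77 of the same list, chosen after its values were seen, had 8.65 and 7.31 in noggin arrays and 6.94 and 9.50 in BMP4 arrays. Array medians over all 35556 probe sets lay between 6.04 and 6.06. BMP4 replicate 1 stood farthest from the rest, with correlations across named genes of 0.985 to 0.989 with the other arrays, against 0.992 to 0.993 among those. Genes are not independent replicates. The main results are therefore also given without BMP4 replicate 1.

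Most Lce and Sprr genes had a higher mean in noggin epidermis, 29 of 32, where 47.8% of all named genes did. The differences were small for Lce1 and Sprr1 and larger for some Sprr2 and Lce3 genes. The median difference over the 32 genes was 0.19 on the log2 scale, a 1.14-fold higher level in noggin, beside -0.0064 over all named genes. No member passed an adjusted p of 0.05 in limma, and 0% of the 35556 probe sets did, the members' adjusted p lying between 0.736 and 1. At an unadjusted p below 0.05 limma gave 5 members, where 4.28% of named genes reached that level. Of these, 4 were higher in noggin (Sprr2b, Sprr2e, Sprr4 and Lce3e), beside 2.18% of named genes, and Sprr2k was lower, beside 2.1%. In 8 members the noggin mean exceeded the BMP4 mean by at least 0.5 log2 units, beside 1.68% of named genes, and in 4 by at least 1, beside 0.271%. The smallest two-sided p that an exact permutation test of a single gene allows with 2 arrays against 2 is 0.33.

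The noggin arrays lay wholly above the BMP4 arrays in 17 of the 32 genes, where 15.7% of named genes did, and below them in 1, where 17.9% did. The members are neighbouring genes, many of close sequence, measured on the same 4 arrays, so the 17 are not independent of each other. Noggin replicate 1 was the highest array in 24 members, against 27.4% of named genes. BMP4 replicate 1 was the lowest array in 21 members, against 25.9% of named genes. Leaving out noggin replicate 1 gave 24 members with a higher mean in noggin and a median difference of 0.087, and leaving out BMP4 replicate 1 also gave 24, with a median of 0.13.

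**Figure D1:**
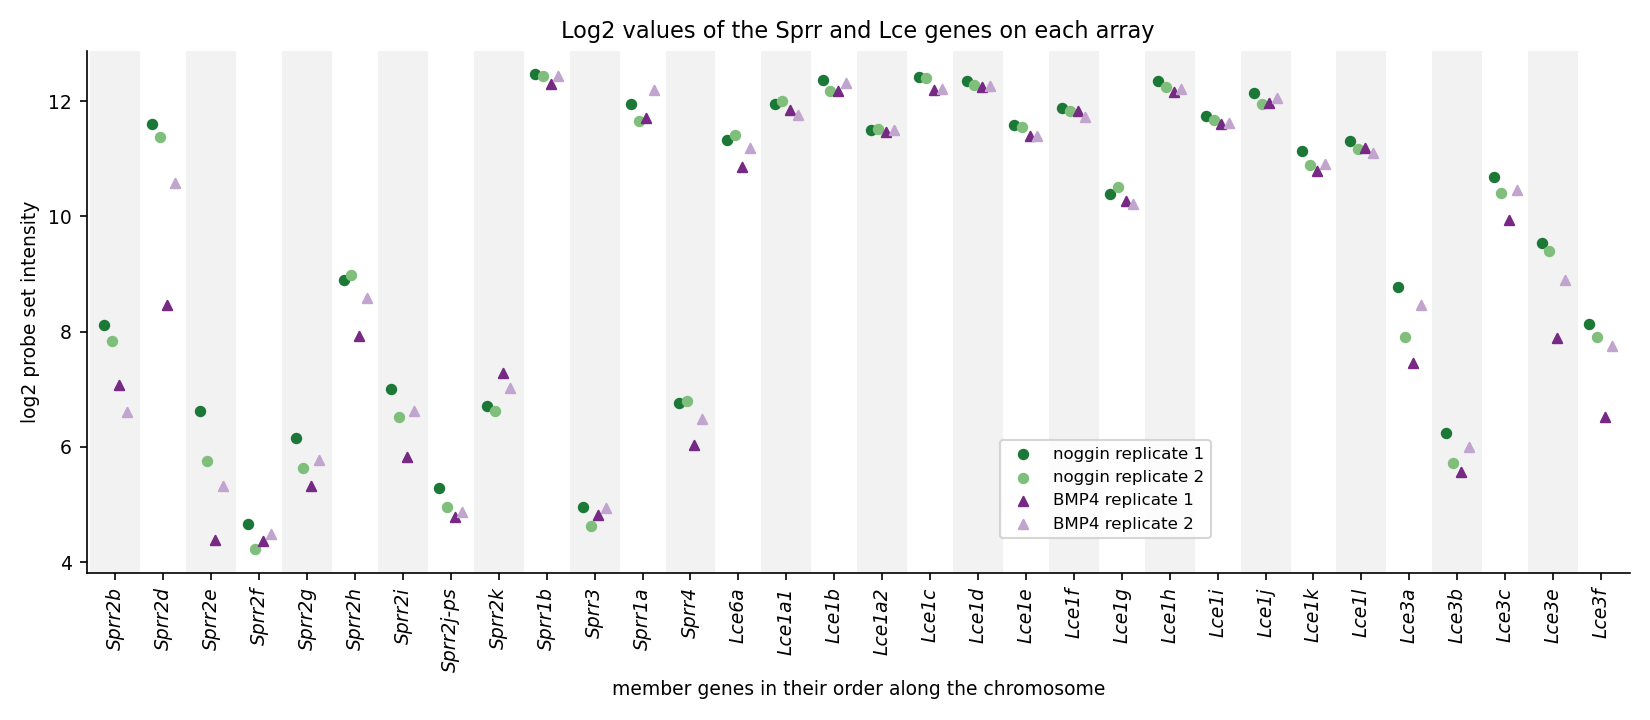
Log2 probe set intensity (vertical axis) of the 32 genes in their order along chromosome 3 (horizontal axis), with circles for the 2 noggin arrays and triangles for the 2 BMP4 arrays. The 4 arrays nearly coincide across the Lce1 genes and spread apart in Sprr2d, Sprr2e, Lce3e and Lce3f, where BMP4 replicate 1 is lowest.

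The Sprr2 genes had the widest range of differences. Of the 9 genes, 8 averaged higher in noggin and 1, Sprr2k, lower, and the median difference was 0.54. The noggin arrays lay wholly above the BMP4 arrays in 5 of the 9, beside 15.7% of named genes. The median was 0.25 when BMP4 replicate 1 was left out, 0.29 when noggin replicate 1 was and 0.90 when BMP4 replicate 2 was.

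Sprr2d, a transglutaminase substrate like its relatives, had log2 values of 11.60 and 11.38 in noggin arrays and 8.46 and 10.57 in BMP4 arrays. The groups did not overlap, and BMP4 replicate 1 lay 2.11 below the nearest other array. The means were 11.49 ± 0.16 in noggin and 9.52 ± 1.49 in BMP4 (SD, n = 2 each), a 3.93-fold difference with a 95% interval from -0.084 to 4.03 on the log2 scale (limma, adjusted p = 0.874). Leaving out BMP4 replicate 1 gave a difference of 0.92, and leaving out BMP4 replicate 2 gave 3.03, against 1.98 with all arrays.

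Sprr2b had the smallest p of the 32 genes and did not follow that pattern. Its log2 values were 8.12 and 7.83 in noggin arrays and 7.08 and 6.60 in BMP4 arrays, so that BMP4 replicate 2, not replicate 1, was lowest. The groups did not overlap. The means were 7.97 ± 0.21 in noggin and 6.84 ± 0.33 in BMP4 (SD, n = 2 each), a 2.20-fold difference (limma, adjusted p = 0.736), and the difference of 1.13 ranged from 0.90 to 1.37 when any 1 array was left out.

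Sprr2e had log2 values of 6.61 and 5.75 in noggin arrays and 4.39 and 5.32 in BMP4 arrays, without overlap. The BMP4 replicate 1 value lies below that array's lower quartile of 4.72, where detection above background is unknown, and the size of the 2.51-fold difference is therefore uncertain (limma, adjusted p = 0.874). Its difference of 1.33 was 0.87 without that array. Sprr2h, the other gene of this subfamily with a difference above 0.6, had 8.89 and 8.98 in noggin arrays and 7.92 and 8.59 in BMP4 arrays, and its difference of 0.68 was 0.35 without BMP4 replicate 1. Sprr2i differed by 0.54, Sprr2g by 0.36 and Sprr2j-ps by 0.29, and without BMP4 replicate 1 these were 0.14, 0.13 and 0.25. The BMP4 values of Sprr2j-ps, 4.79 and 4.88, lie near those arrays' lower quartiles of 4.72 and 4.71. Its presence in them is therefore not established. The noggin and BMP4 arrays overlapped for Sprr2i and Sprr2g.

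Sprr2k, the last Sprr2 gene along the chromosome and the next neighbour of Sprr1b, ran the other way. Its log2 values were 6.71 and 6.61 in noggin arrays and 7.27 and 7.01 in BMP4 arrays, with both noggin arrays below both BMP4 arrays. The difference of -0.48 had a 95% interval from -0.84 to -0.13 and an adjusted p of 0.830 in limma, and it ranged from -0.61 to -0.35 when any 1 array was left out. BMP4 replicate 1 was here the highest of the 4 arrays. Sprr2f, which in the mouse is known for induction by oestrogen in the uterus, lay below the lower quartile on all 4 arrays and differed by 0.021.

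The promoters of Sprr2b, Sprr2d, Sprr2e and Sprr2k are shown because these 4 genes of a single subfamily differed in size or direction, and that of Lce3e as the Lce3 gene of largest difference. The sequences are the 210 bases before each annotated gene start, on the plus strand of chromosome 3, from RefSeq on GRCm38.p6. They span chr3:92316495-92316704 for Sprr2b, chr3:92338930-92339139 for Sprr2d, chr3:92351933-92352142 for Sprr2e, chr3:92432372-92432581 for Sprr2k and chr3:92966851-92967060 for Lce3e. Capitals mark matches on either strand to TGANTCA, the pattern searched here for AP-1 (JUN and FOS dimers). They also mark ATTTGCAT, the octamer letters of POU factors, and TATAAA, the TATA box, on either strand.
Sprr2b: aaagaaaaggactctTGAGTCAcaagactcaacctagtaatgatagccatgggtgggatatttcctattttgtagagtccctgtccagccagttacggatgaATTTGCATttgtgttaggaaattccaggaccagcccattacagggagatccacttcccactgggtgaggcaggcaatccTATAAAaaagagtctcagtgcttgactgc
Sprr2d: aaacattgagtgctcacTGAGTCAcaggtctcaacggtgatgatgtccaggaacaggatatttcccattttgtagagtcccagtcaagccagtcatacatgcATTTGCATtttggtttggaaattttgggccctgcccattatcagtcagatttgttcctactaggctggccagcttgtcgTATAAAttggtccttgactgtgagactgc
Sprr2e: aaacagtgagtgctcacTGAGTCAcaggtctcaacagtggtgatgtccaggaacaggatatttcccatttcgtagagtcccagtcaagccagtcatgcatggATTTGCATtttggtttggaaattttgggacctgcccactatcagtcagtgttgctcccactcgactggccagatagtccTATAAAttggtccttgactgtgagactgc
Sprr2k: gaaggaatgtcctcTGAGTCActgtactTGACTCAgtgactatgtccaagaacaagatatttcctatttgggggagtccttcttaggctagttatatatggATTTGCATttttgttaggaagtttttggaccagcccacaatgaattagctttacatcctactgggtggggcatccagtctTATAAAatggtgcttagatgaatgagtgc
Lce3e: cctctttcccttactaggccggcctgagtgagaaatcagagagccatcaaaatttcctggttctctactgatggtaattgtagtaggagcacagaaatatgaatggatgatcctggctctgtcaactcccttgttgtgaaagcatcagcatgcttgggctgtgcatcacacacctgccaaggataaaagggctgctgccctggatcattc
The 4 Sprr2 promoters carry the AP-1, octamer and TATA letters in the same order, and Sprr2k carries a second AP-1 match. The Lce3e stretch carries none of these exact letters.

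Promoter windows of 300 bases, 250 before and 50 after the gene start, were found for 29 of the 32 genes, with none used for Lce1f, Sprr2g and Sprr2j-ps. The AP-1 letters TGANTCA, which read the same on both strands, occurred in all 7 Sprr2 windows and both Sprr1 windows and in none of the 12 Lce1, 5 Lce3 or 3 other windows, beside 7.81% of all 32851 promoter windows. In the 7 Sprr2 windows they began 182 to 198 bases before the start, with 2 matches in Sprr2k. The octamer ATTTGCAT, or ATGCAAAT on the other strand, occurred in all 7 Sprr2 windows, 108 to 112 bases before the start, and in no other member, beside 1.74% of all windows. TATAAA or TTTATA occurred in 13 of the 29 windows, beside 13.6% of all windows, and in the 7 Sprr2 windows it began 29 bases before the start each time. The matches in Lce3e and Lce6a were TTTATA, 243 and 218 bases before the start. The octamer and TATA letters were added to the search after these sequences had been seen.

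The KLF-type CACCC letters CCCACCC, or GGGTGGG on the other strand, occurred in 2 of the 29 windows, those of Sprr2b and Sprr2k, beside 17.5% of all windows. The grainyhead-type letters AACCNGTT, or AACNGGTT on the other strand, occurred in 0 of the 29, beside 2.09% of all windows. No 2 of these motifs overlapped in a printed sequence. The 250 upstream bases of the 7 Sprr2 genes were 60.1% to 89.3% identical in pairwise global alignment. Sprr2d and Sprr2e, at 89.3%, were the closest pair, and Sprr2h and Sprr2k, at 80.6%, came next. The members of that second pair differed in the sign of their expression difference, 0.68 for Sprr2h and -0.48 for Sprr2k. A match to these letters describes the sequence and not a binding site.

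**Figure D2:**
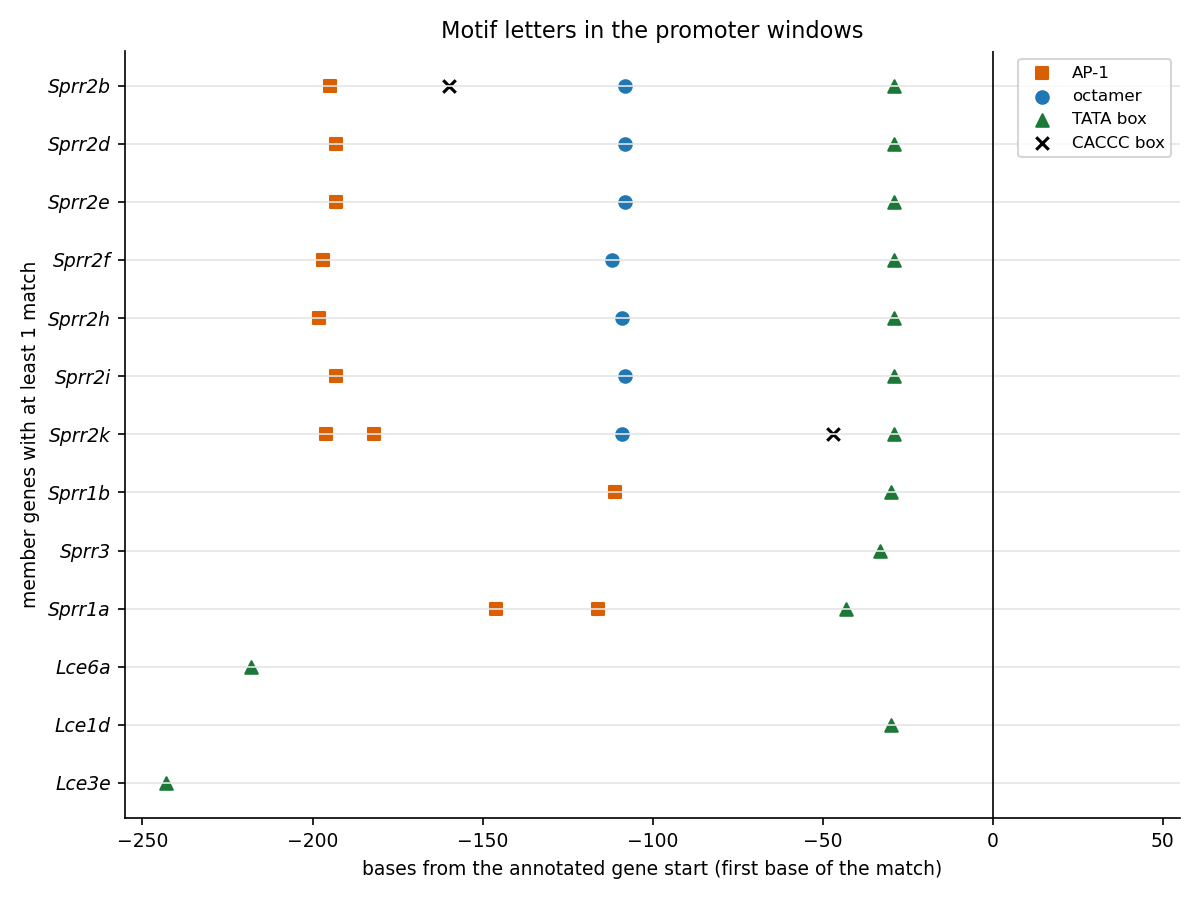
Position of the first base of each motif match (horizontal axis, bases from the annotated gene start at 0) in the promoter windows of the member genes with at least 1 match (vertical axis, in chromosomal order). AP-1, octamer and TATA matches line up in all 7 Sprr2 genes, Sprr2k included, and crosses mark the CACCC letters in Sprr2b and Sprr2k.

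Further Sprr2 signal lies in probe sets that the platform gives to several genes and that are not members. The probe set shared by Sprr2a1, Sprr2a2, Sprr2a3 and Sprr2b had log2 values of 12.38 and 11.63 in noggin arrays and 8.54 and 11.95 in BMP4 arrays. A pair of probe sets shared by Sprr2a1 and Sprr2a3 held identical values, 11.02 and 10.30 in noggin arrays and 7.71 and 10.52 in BMP4 arrays. In these the noggin arrays and BMP4 replicate 2 lay close together and BMP4 replicate 1 lay far below. Without BMP4 replicate 1 the difference was 0.060 for the first, against 1.76 with all arrays, and 0.14 for the pair, against 1.55. Sprr2b's own probe set was not at its lowest in that array. Probes that bind several copies of a family could mix their values also in probe sets with a single symbol, which was not tested.

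The Sprr1 genes, which encode envelope proteins of keratinocytes and, for Sprr1a, a protein also known from regenerating nerve, showed no shared difference. Sprr1b had log2 values of 12.46 and 12.44 in noggin arrays and 12.30 and 12.43 in BMP4 arrays. Sprr1a had 11.95 and 11.66 in noggin arrays and 11.71 and 12.19 in BMP4 arrays, where the groups overlapped. The difference for Sprr1b was 0.089, its 95% interval running from -0.18 to 0.35 (limma, adjusted p = 0.968). That for Sprr1a was -0.15, its 95% interval running from -0.74 to 0.44 (limma, adjusted p = 0.983), and -0.39 without BMP4 replicate 1. Both promoters of this pair match TGANTCA, with TGAGTCA in Sprr1a and TGAATCA in Sprr1b, and their upstream bases were 55.9% identical.

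Among the 3 remaining genes, Sprr4 and Lce6a were higher in both noggin arrays than in both BMP4 arrays and Sprr3 was not. Sprr4, which in humans is known for induction by ultraviolet light, had log2 values of 6.76 and 6.79 in noggin arrays and 6.02 and 6.48 in BMP4 arrays. Its difference of 0.53 (limma, adjusted p = 0.874, 95% interval from 0.033 to 1.02) was 0.30 without BMP4 replicate 1. Lce6a, which lies between the Sprr and the Lce1 genes, had 11.33 and 11.40 in noggin arrays and 10.85 and 11.18 in BMP4 arrays, a difference of 0.35 (limma, adjusted p = 0.893) that was 0.19 without BMP4 replicate 1. Sprr3, known from the lining of the oesophagus and forestomach, had 4.95 and 4.62 in noggin arrays and 4.82 and 4.93 in BMP4 arrays. These Sprr3 values lie near the lower quartiles of the arrays, 4.71 to 4.72, so its presence in this tissue is not established by them.

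The 13 Lce1 genes were nearly level across the 4 arrays. Their log2 values lay between 10.39 and 12.41 in noggin arrays and between 10.21 and 12.32 in BMP4 arrays. All 13 averaged higher in noggin, by 0.022 to 0.21 and 0.11 in the median, or 1.08-fold, but Lce1a2 and Lce1j turned negative under a further quantile normalization and Lce1b under cyclic loess. None reached an unadjusted p of 0.05, and adjusted p lay between 0.893 and 0.999 (limma). In 7 of the 13 the noggin arrays lay wholly above the BMP4 arrays, beside 15.7% of named genes.

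Lce1c, the Lce1 gene with the highest mean, had log2 values of 12.41 and 12.40 in noggin arrays and 12.19 and 12.21 in BMP4 arrays. The difference of 0.21 had a 95% interval from -0.027 to 0.44 and an adjusted p of 0.893 in limma. It ranged from 0.19 to 0.22 when any 1 array was left out. The SDs were 0.0098 in noggin and 0.020 in BMP4 (n = 2 each). Lce1g, the Lce1 gene with the largest difference, had 10.39 and 10.50 in noggin arrays and 10.26 and 10.21 in BMP4 arrays. Its groups did not overlap either, and its difference ranged from 0.15 to 0.27 on leaving out 1 array. Lce1a1 differed by 0.18 and Lce1e by 0.17, whereas Lce1b and Lce1a2, both overlapping between the groups, differed by 0.022 and 0.023.

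BMP4 replicate 1, the lowest array for 7 of the 13 Lce1 genes, moved their median little. It was 0.10 without that array, with 11 of 13 genes higher in noggin, and 0.046 without noggin replicate 1. The highest log2 value on any array lay between 13.82 and 13.92, and whether signal flattening near that top narrowed the Lce1 differences was not tested.

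The 5 Lce3 genes, Lce3a, Lce3b, Lce3c, Lce3e and Lce3f, all averaged higher in noggin, by 0.39 in the median, but the size changed with every pool left out. BMP4 replicate 1 was the lowest and noggin replicate 1 the highest array for all 5. Without BMP4 replicate 1 the median was 0.087 and 3 of 5 genes averaged higher in noggin, and without noggin replicate 1 it was 0.21, also with 3 of 5. Without BMP4 replicate 2 it was 0.89 and without noggin replicate 2 it was 0.82.

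Lce3e had log2 values of 9.54 and 9.41 in noggin arrays and 7.89 and 8.89 in BMP4 arrays. The groups did not overlap, and the means were 9.47 ± 0.093 in noggin and 8.39 ± 0.71 in BMP4 (SD, n = 2 each), a 2.12-fold difference with a 95% interval from 0.078 to 2.09 on the log2 scale (limma, adjusted p = 0.874). It was 0.58 without BMP4 replicate 1. Lce3f, its neighbour, had 8.13 and 7.90 in noggin arrays and 6.52 and 7.74 in BMP4 arrays, also without overlap, and its difference of 0.89 was 0.27 without BMP4 replicate 1. In each of the 4 comparisons that left out 1 array both genes averaged higher in noggin, Lce3e by at least 0.58 and Lce3f by at least 0.27.

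In the other Lce3 genes the groups overlapped. Lce3c, the Lce3 gene with the highest mean, had 10.68 and 10.40 in noggin arrays and 9.93 and 10.45 in BMP4 arrays, and its difference was 0.35, or 0.087 without BMP4 replicate 1. Lce3a had 8.78 and 7.91 in noggin arrays and 7.46 and 8.46 in BMP4 arrays, and its difference of 0.39 was -0.11 without BMP4 replicate 1 and -0.047 without noggin replicate 1. Lce3b differed by 0.19, by -0.024 without BMP4 replicate 1 and by -0.067 without noggin replicate 1. The probe set shared by all 6 Lce3 genes had 10.52 and 10.11 in noggin arrays and 9.61 and 10.43 in BMP4 arrays, a difference of 0.30 that was -0.11 without BMP4 replicate 1.

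**Figure D3:**
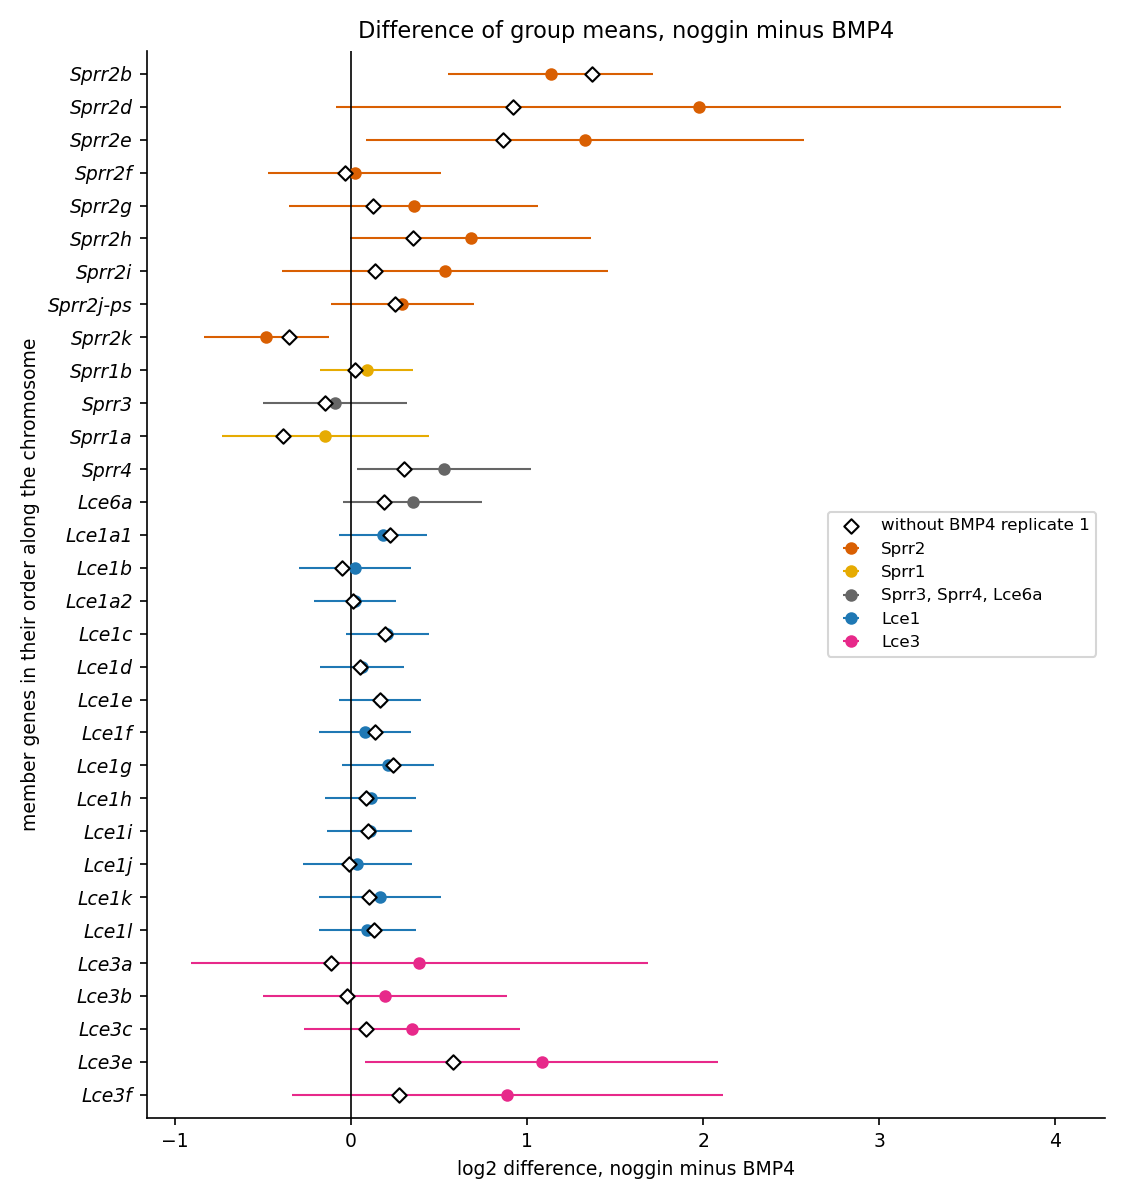
Log2 difference of group means, noggin minus BMP4 (horizontal axis), for the 32 genes in chromosomal order (vertical axis). Filled points with bars are the differences over all 4 arrays with 95% limma intervals, coloured by subfamily, and open diamonds are the differences without BMP4 replicate 1, which lie closer to 0 for most Sprr2 and all Lce3 genes.

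In the more variable subfamilies noggin replicate 1 stood high and BMP4 replicate 1 low. Relative to each gene's mean, the median of the 9 Sprr2 genes was 0.44 in noggin replicate 1, 0.026 in noggin replicate 2, -0.41 in BMP4 replicate 1 and 0.047 in BMP4 replicate 2. For the 5 Lce3 genes it was 0.56 and 0.036 in noggin replicates 1 and 2 and -0.69 and 0.12 in BMP4 replicates 1 and 2. These medians cover genes that ran both ways between the replicate 2 arrays, such as Sprr2b and Sprr2k or Lce3e and Lce3a, whose values are given above. For Lce1 the same values were 0.098 and 0.0054 in noggin and -0.064 and -0.041 in BMP4. BMP4 replicate 1 lay more than 0.5 log2 units below all 3 other arrays in 6 members, 4 Sprr2 and 2 Lce3 genes, where 1.12% of named genes did.

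**Figure D4:**
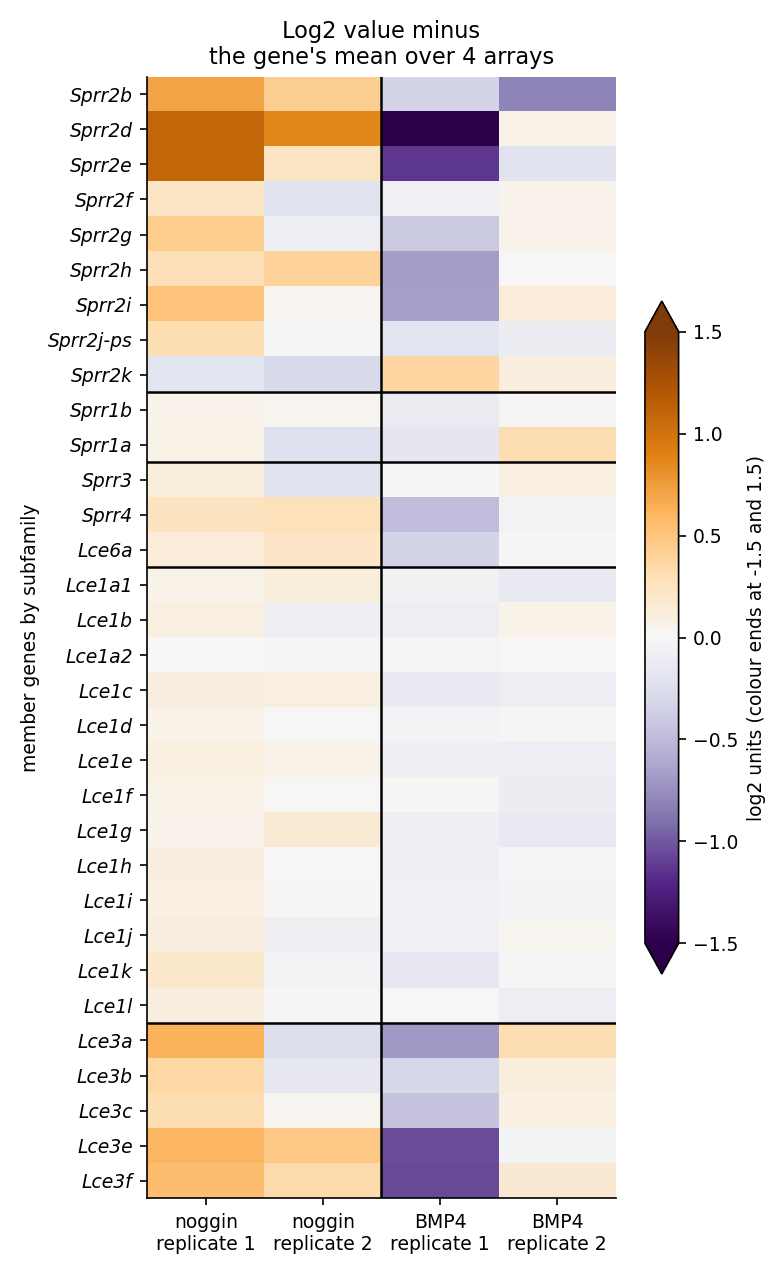
Log2 value of each member gene minus its mean over the 4 arrays (colour, in log2 units), with genes by subfamily on the vertical axis and the 2 noggin arrays left of the 2 BMP4 arrays. Dark purple cells in the BMP4 replicate 1 column mark Sprr2d, Sprr2e, Lce3e and Lce3f, and the Lce1 block is pale throughout.

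Markers of other cell types differed between the same arrays. The 14 Langerhans cell and macrophage markers had a summed linear intensity of 4791 and 4865 in noggin arrays and of 2179 and 4022 in BMP4 arrays, with the lowest value in BMP4 replicate 1. Cd207, the langerin of Langerhans cells, had log2 values of 7.21 and 7.28 in noggin arrays and 6.48 and 6.86 in BMP4 arrays. H2-Eb1, an MHC class II chain and the gene of smallest p in this list, ran the other way, with 6.37 and 6.43 in noggin arrays and 7.31 and 7.38 in BMP4 arrays (limma, adjusted p = 0.601). The 17 skeletal muscle markers summed to 10708 and 6147 in noggin arrays and to 3870 and 7333 in BMP4 arrays, and the 11 sebaceous gland markers to 4535 and 4052 in noggin arrays and to 2937 and 3532 in BMP4 arrays. The 9 T cell markers, 10 having been listed, summed to 1133 and 1427 in noggin arrays and to 843 and 1148 in BMP4 arrays. The sum was lowest in BMP4 replicate 1 for 10 of the 15 lists, fibroblast, melanocyte, endothelial, other envelope, enzyme and regulator genes included, and for every Lce and Sprr subfamily.

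The hair follicle list, 19 of 20 genes measured, had its highest sum in that array. It summed to 2433 and 2214 in noggin arrays and to 6291 and 3420 in BMP4 arrays. Krt84, a hair-type keratin with the largest difference of the list, weighs heavily in that sum. Its log2 values were 5.47 and 5.71 in noggin arrays and 11.60 and 9.09 in BMP4 arrays. The median difference over the 19 hair genes was only -0.16, or -0.13 without BMP4 replicate 1. The 7 basal keratinocyte genes summed to 15381 and 15739 in noggin arrays and to 16859 and 16033 in BMP4 arrays. On all 4 arrays 1 of the 19 hair and 1 of the 9 T cell markers lay below the lower quartile, and no Langerhans cell, muscle, sebaceous or basal marker did. The part of these cell types in the Lce and Sprr differences was not tested.

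**Figure D5:**
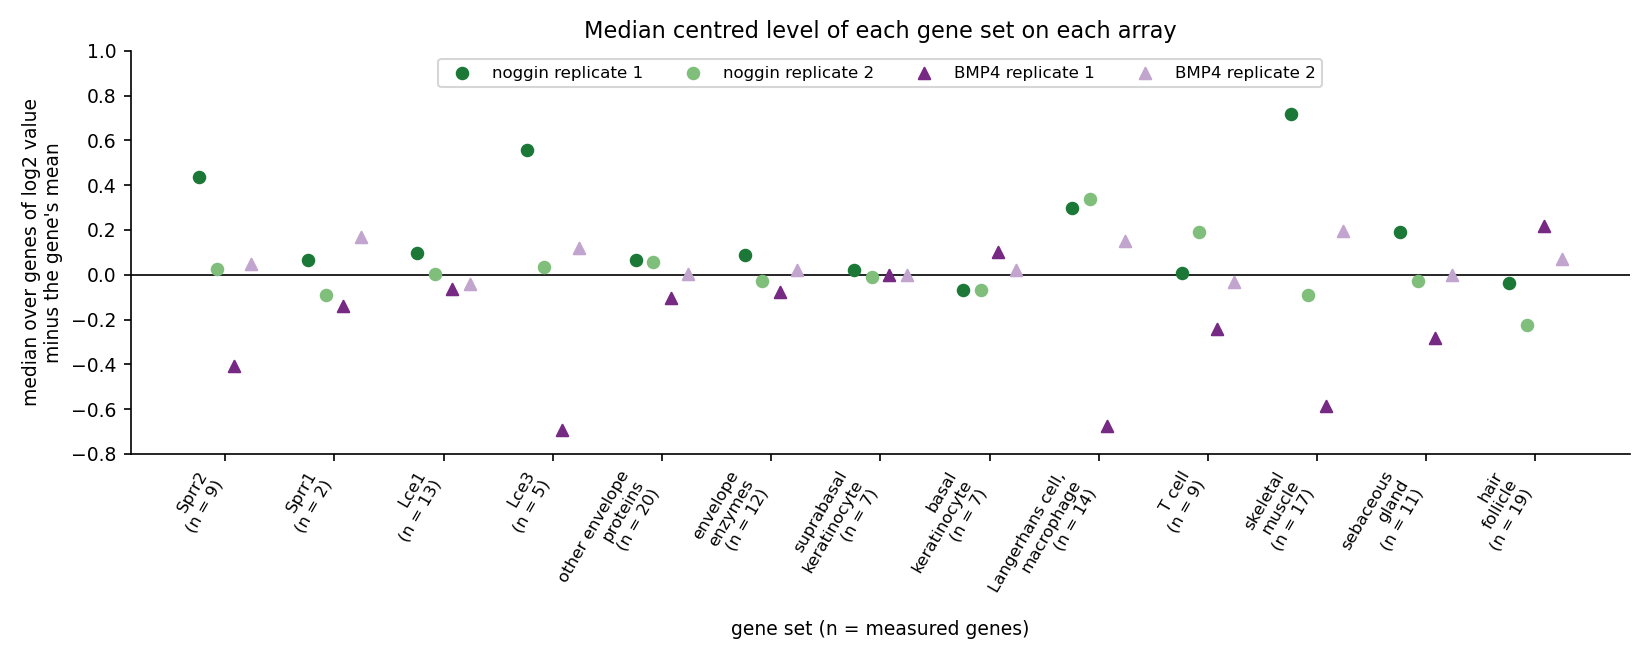
Median over the genes of a set of the log2 value minus the gene's mean (vertical axis, log2 units) for member subfamilies, other envelope genes and cell type markers (horizontal axis, n = measured genes), with circles for noggin arrays and triangles for BMP4 arrays. BMP4 replicate 1 is lowest for all the sets shown except the suprabasal, basal and hair follicle lists, by the widest margins for Sprr2, Lce3, Langerhans cell and muscle genes, and highest for the hair follicle and basal keratinocyte lists.

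Most other cornified envelope proteins also averaged higher in noggin. Of the 21 listed, 20 were measured and 16 averaged higher in noggin, the median difference being 0.12. The noggin arrays lay wholly above the BMP4 arrays in 9, beside 15.7% of named genes, and wholly below them in 1, beside 17.9%. Limma called 0 of the 20, with 2 at an unadjusted p below 0.05, beside 4.28% of named genes. Rptn, which encodes the envelope protein repetin, had log2 values of 10.47 and 11.10 in noggin arrays and 9.99 and 10.16 in BMP4 arrays (limma, adjusted p = 0.874). Flg2, the filaggrin-like gene, chosen after its values were seen, averaged 10.11 ± 0.59 in noggin and 9.13 ± 0.89 in BMP4 (SD, n = 2 each), with overlap, and its difference of 0.98 was 0.35 without BMP4 replicate 1. Cdsn, the corneodesmosome protein, ran the other way, with 11.44 and 11.34 in noggin arrays and 11.70 and 11.74 in BMP4 arrays (limma, adjusted p = 0.848). Without BMP4 replicate 1 this list's median was 0.062. A difference between this list and the Lce and Sprr genes was not tested.

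The enzymes that process or cross-link the envelope were close to level. Of 12 genes, 8 averaged higher in noggin, the median difference being 0.057, or 0.028 without BMP4 replicate 1. Without noggin replicate 1 it was 0.024, with 6 of the 12 higher in noggin. Limma called 0, also with 0 at an unadjusted p below 0.05, beside 4.28% of named genes. Casp14, the caspase of filaggrin processing, had log2 values of 9.85 and 10.16 in noggin arrays and 9.29 and 9.84 in BMP4 arrays, and Klk7, a desquamation protease, had 11.64 and 11.60 in noggin arrays and 11.06 and 11.45 in BMP4 arrays. Of 22 measured regulators of envelope genes out of 23 listed, 16 averaged higher in noggin. The median difference over the 22 was 0.061, or 0.041 without BMP4 replicate 1. Without noggin replicate 1 it was 0.028, with 12 of the 22 higher in noggin. Limma called 0 of the 22, with 2 at an unadjusted p below 0.05, beside 4.28% of named genes. Fosl1, which encodes an AP-1 subunit, had 7.44 and 7.28 in noggin arrays and 6.68 and 6.85 in BMP4 arrays, without overlap (limma, adjusted p = 0.736). The other AP-1 genes of this list differed by -0.095 (Jun), 0.0057 (Fosl2), 0.011 (Junb), 0.095 (Fos) and 0.12 (Jund). Any part of AP-1 in the Sprr2 differences was not tested. Hopx, a homeodomain protein of differentiating keratinocytes, had 9.07 and 8.99 in noggin arrays and 8.58 and 8.73 in BMP4 arrays.

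Stress keratins and alarmins, which inflamed skin expresses together with Sprr2 and Lce3 genes, did not run one way. Among 13 measured genes, 8 averaged higher and 5 lower in noggin, the median difference being 0.64, or 0.35 without BMP4 replicate 1. Limma called 0 of the 13, with 7 at an unadjusted p below 0.05, beside 4.28% of named genes. All 4 keratins of the list, Krt6a, Krt6b, Krt16 and Krt17, averaged lower in noggin. For 3 of them the noggin arrays lay wholly below the BMP4 arrays, beside 17.9% of named genes. Krt6a, a keratin of wounded skin, had log2 values of 8.65 and 8.99 in noggin arrays and 11.05 and 10.23 in BMP4 arrays (limma, adjusted p = 0.732). The keratins were singled out after their values were seen. S100a9, a subunit of calprotectin, had log2 values of 8.92 and 9.23 in noggin arrays and 6.95 and 7.42 in BMP4 arrays (limma, adjusted p = 0.636). Saa1, an acute-phase protein, had 5.61 and 5.21 in noggin arrays and 3.99 and 4.04 in BMP4 arrays, the BMP4 values lying below the lower quartiles.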

How the data were processed

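The authors deposited log2 intensities per probe set. Their software was Affymetrix Expression Console with RMA, per the submitters' processing notes, and the sources used here give no version of it. RMA removes differences in overall signal between arrays and compresses those of dim probe sets. Whether a probe set is detected above background is unknown. For arrays, their number limits the precision.

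Of 35556 probe sets, 21789 have 1 platform symbol, 1621 have several and 12146 are unnamed here. All 32 members matched the GRCm38.p6 gene table, used for names and gene order only. Noggin minus BMP4 was fitted over all probe sets with limma 3.58.1 in R 4.3.3, with group as the only term, 2 residual and 2.08 prior degrees of freedom, and two-sided p adjusted by Benjamini-Hochberg at a threshold of 0.05. Each error is the SD of 2 arrays, which are pools of different animals.

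The members, gene lists and tests were chosen with earlier results of these data known. Named genes were the highest and the most different member of each subfamily, the 3 members outside them, the 3 of smallest p in each direction, and from each list the 2 genes of smallest p (for other cell types also the 2 of highest mean), of which the text prints a few. Lists of sweat gland, fibroblast, melanocyte and endothelial genes had median differences of 0.043, -0.029, 0.051 and 0.063. Same-numbered arrays did not deviate together (r = -0.090 across genes). A single correlation from so few arrays cannot exclude that the replicate numbers pair them. The code was tested on simulated data. Promoter sequences came from RefSeq, pairwise identity from Biopython 1.88.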

Additional observations from a re-analysis of the deposited data

How the results depend on the processing

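No member was called under the adjusted p thresholds of 0.05 and 0.10, another normalization or prior, a filter on dim probe sets (31 members left), or with any 1 array left out. At an unadjusted p of 0.05, 1994 probe sets and 5 members passed. With the replicate number as a block, 0 members were called, the lowest adjusted p was 0.948 (limma) and no member changed sign. Leaving out 1 array at a time, the members whose noggin arrays lay wholly above the BMP4 arrays numbered 18 to 29, fewer arrays making separation easier. The share of named genes so separated with an array left out is not given here. The counts of 18 to 29 therefore have no background and do not show a stronger difference. With all arrays such members numbered 17, but 14 under a further quantile normalization and 13 under cyclic loess. The share of named genes so separated under those normalizations is not given here either, so 14 and 13 have no background. The median difference ranged from 0.087 to 0.23 over all members, 0.046 to 0.15 for Lce1, 0.087 to 0.89 for Lce3 and 0.25 to 0.90 for Sprr2. For Sprr1 it changed sign, ranging from -0.18 without BMP4 replicate 1 to 0.12 without BMP4 replicate 2. Signs turned within these ranges for Sprr2f (-0.20 to 0.24), Sprr3 (-0.25 to 0.073), Sprr1a (-0.39 to 0.094), Lce1b (-0.067 to 0.11), Lce1j (-0.060 to 0.13), Lce3a (-0.11 to 0.89) and Lce3b (-0.067 to 0.45), and for 68 of 185 list genes, of which the naming rule picked Dcn (-0.31 to 0.13), Krt8 (-0.057 to 0.040), Sox10 (-0.30 to 0.017), Sparc (-0.36 to 0.044) and Thy1 (-0.15 to 0.35). Lce1b was -0.0027 under cyclic loess, and a further quantile normalization gave -0.0033 for Lce1a2 and -0.0024 for Lce1j. The cause was not tested. Each member has 1 single-symbol probe set, so the choice among probe sets changed no member.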
